A study of Mus musculus with 14 samples.

Results

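The change that a catalytically dead Argonaute brought to the mouse oocyte transcriptome was set against the change that loss of Dicer brought. The question was which genes respond differently to the 2 mutations. Of the 14 libraries of the series, 12 entered this comparison, with 3 libraries in each of 4 groups, and each library held 20 pooled oocytes. Effects differed for 540 of 14526 genes tested. Ago2 ADH females carried 1 Ago2 allele with an inactive cleavage site and 1 floxed allele, and a Zp3-Cre transgene, active in growing oocytes, removed the floxed allele. Their controls were Ago2 fl/fl females, labelled wild-type for Ago2. Ago2 null oocytes, from Ago2 fl/fl females with the Zp3-Cre transgene, had 2 libraries. They were outside the comparison and are given beside it for some genes. Dicer KO oocytes, labelled Dicer null, came by the methods from mice with a deletion specific to oocytes. They were set against Dicer WT oocytes of their own line, and the driver of that deletion is not given in the sources used here. Females were 4 to 6 weeks old by the methods and had been treated with a gonadotropin to enlarge the follicles, and attached cumulus cells were removed by pipette. A mixed background that was mostly C57BL6 is given, but the labels do not state the background of the Dicer line. Whether the 2 lines shared a background is therefore not known here, and its part in the differences below was not tested. All oocytes were full-grown and still held the germinal vesicle, so they were arrested in prophase of meiosis I. Pools came from 3 animals by the labels and from 3 or 4 by the methods, and the p-values below measure the spread between such pools.

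Dicer cuts long double-stranded RNA into small interfering RNAs (siRNAs) and hairpin precursors into microRNAs, and Argonaute proteins carry both to their targets. AGO2 is the member of the family in mammals known for cutting a fully matched target RNA. The ADH change removes this cutting while small RNAs can still be bound. These oocytes also hold a single Ago2 allele, so the 2 mutations differ in more than cleavage. Full-grown mouse oocytes are known for abundant endogenous siRNAs and for weak repression by microRNAs, and they have largely stopped transcription and live on stored mRNA.

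Each gene was represented by its transcript with the highest mean count, and 14526 of 20638 genes passed the filter on low counts. For each gene the log2 fold change of Dicer KO over Dicer WT was subtracted from that of Ago2 ADH over Ago2 fl/fl. This difference, called the interaction below, was tested with edgeR's quasi-likelihood test and Benjamini-Hochberg adjustment, and a gene was called at an adjusted p below 0.01. Values per library are normalized counts, scaled for composition by the TMM method to the mean library size, and every fold change is on the log2 scale with its standard error. The relative abundance of a transcript was measured, so less RNA per oocyte and less of 1 transcript in the same total cannot be told apart.

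Library totals ran from 29380403 to 58285057 counts on transcripts, and a count of 3 stood for 0.0515 to 0.102 CPM, counts scaled by the library total. The CPM of markers below were scaled by the smaller total over 1 transcript per gene, so a count of 3 stands for more there. Intervals and floors cover counting error only, since amplified reads are not independent molecules. Ago2 itself had 1087, 1138 and 1072 normalized counts in Ago2 fl/fl and 614, 578 and 553 in Ago2 ADH oocytes, which carry a single Ago2 allele. In the other line it had 1227, 1113 and 1178 in Dicer WT and 754, 700 and 929 in Dicer KO oocytes. Mutant and control libraries did not overlap in either line, and the difference between the 2 falls, of 0.92 and 0.56, did not pass the test (interaction -0.36 ± 0.14, edgeR adjusted p = 0.128). Dicer1 rose in both, from 27880, 28750 and 29130 to 43320, 44140 and 44960 in Ago2 ADH oocytes and from 33700, 33520 and 35040 to 87380, 81980 and 75290 in Dicer KO oocytes. The rise was larger in the oocytes labelled Dicer KO (interaction -0.63 ± 0.07, edgeR adjusted p = 5.21e-06). Counts over the whole transcript do not show whether an exon is missing, so they do not check the deletion, and the Dicer KO label rests on the submitters. The 3 libraries of an Ago2 genotype shared a lane that held no other genotype, and each Dicer library had a lane of its own, so an effect of the lane cannot be told apart from that of the genotype in the Ago2 line.

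All 10 oocyte markers were detected in each group, with summed levels from 14560 to 22270 CPM. Summed levels of 15 markers of cumulus or granulosa cells, which surround the oocyte in the follicle, were lower in both mutants than in their controls. They were 276 to 287 CPM in Ago2 fl/fl, 214 to 221 in Ago2 ADH, 320 to 351 in Dicer WT and 250 to 278 in Dicer KO oocytes. Serpine2, Cyp19a1 and Nr5a2 made up most of these sums, and members did not all go the same way. Inha, an inhibin subunit, had 0.585 to 1.26 CPM in Ago2 fl/fl and 1.85 to 2.23 in Ago2 ADH oocytes, and Hsd17b1, an enzyme of oestradiol synthesis, 0.327 to 0.512 and 0.606 to 1.48. Foxl2 and Ptx3 were at or near 0 in every library. Markers of blood and of immune cells each summed to 1.08 CPM or less, and those of theca or stroma to 3.8 or less. Endothelial markers, nearly all Pecam1 and Tek with Cdh5 at or near 0, summed to 65.2 to 72.8 CPM in Ago2 fl/fl, 68.3 to 74.3 in Ago2 ADH, 74 to 83.0 in Dicer WT and 60.8 to 64.9 in Dicer KO oocytes. The part of these markers in the results below was not tested.

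Most changes called in both lines went the same way. Of the 14526 genes, 5357 (36.9%) were called in Ago2 ADH oocytes, 2410 (16.6%) higher and 2947 (20.3%) lower than in Ago2 fl/fl. In Dicer KO oocytes 5394 (37.1%) were called, 2645 (18.2%) higher and 2749 (18.9%) lower than in Dicer WT. Among the 3726 genes called in both, 3673 moved the same way and 53 moved in opposite directions. The 2 sets of fold changes share no library, and their Spearman correlation across genes was 0.72, given as a description because genes are not independent.

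The interaction was called for 540 genes, 3.72% of those tested, 191 (1.31%) higher and 349 (2.4%) lower in Ago2 ADH relative to Dicer KO. Of these, 166 differed at least 2-fold, 75 higher and 91 lower. The smallest called interaction was 0.30 in size. The share on the higher side, 35.4%, moved with the analysis. It was 44.3% with RLE factors, 50.9% with library sizes alone, 46.8% with offsets for GC content and length and 46.7% with DESeq2, which changes the test as well. It was also 44.8% without a filter, 40.8% at an FDR of 5% and 43.2% without Dicer KO replicate 3. The called genes were more abundant than most, with a median of 1450 normalized counts against 448 over all genes tested. Controls of the 2 lines differed about as much in the called genes as over all genes. The median absolute log2 difference between Ago2 fl/fl and Dicer WT was 0.39 over all genes and 0.37 over the called ones, and between Ago2 ADH and Dicer KO it was 0.42 and 0.56. In 325 of the 540 the mutants differed by more than the controls, and in 215 the controls differed by more.

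Sorted by their 2 effects, the 540 genes showed 5 patterns. Opposite changes were called for 53, of which 7 rose in Ago2 ADH and fell in Dicer KO oocytes and 46 did the reverse. Another 115 were called in Ago2 ADH alone, 47 higher and 68 lower. A further 185 were called in Dicer KO alone, 125 higher and 60 lower. In 184 both effects went the same way with unequal size. Rises were larger in Dicer KO for 97 and larger in Ago2 ADH for 36, and falls were larger in Dicer KO for 40 and larger in Ago2 ADH for 11. The last 3 genes had neither effect called. In Ago2 null oocytes the effect had the sign of Ago2 ADH in 6 of the 7 opposite genes that rose and in all 46 that fell. It had that sign in 12366 of the 13986 genes whose interaction was not called. Both Ago2 effects use the same Ago2 fl/fl libraries, which by itself raises such a match, and no test was made of it.

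**Figure D1:**
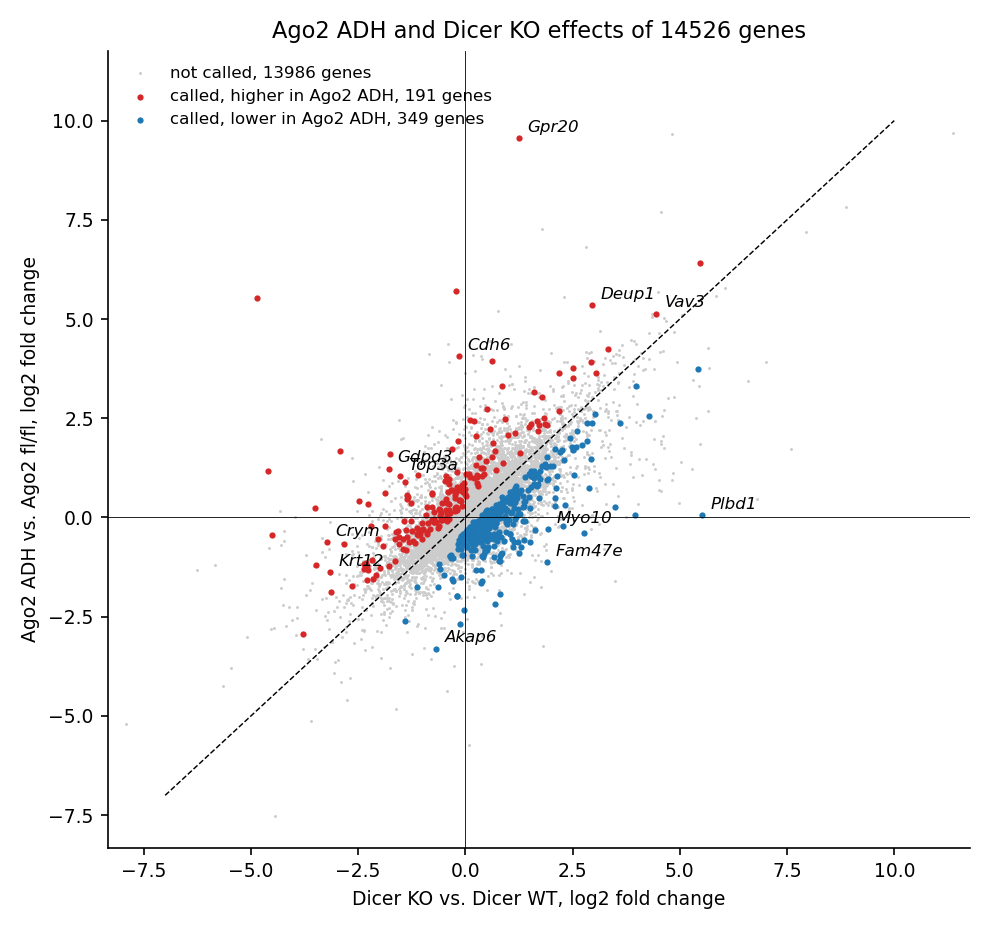
The log2 fold change of each gene between Ago2 ADH and Ago2 fl/fl (vertical axis) is plotted against that between Dicer KO and Dicer WT (horizontal axis), with the 191 genes called higher in Ago2 ADH in red, the 349 called lower in blue and the other genes in grey. Most points lie along the dashed line of equal effects, while Gpr20 stands at 9.56 in Ago2 ADH against 1.25 in Dicer KO, and Plbd1 at 0.06 against 5.52.

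Genes that rose in Ago2 ADH and fell in Dicer KO oocytes were led, among those with enough counts, by Gdpd3 and Top3a. Gdpd3, an enzyme that releases lysophosphatidic acid from lysophospholipids (chr7:126766414-126775645, GRCm38), had 192, 148 and 143 normalized counts in Ago2 fl/fl and 348, 432 and 353 in Ago2 ADH oocytes. It had 685, 994 and 689 in Dicer WT and 259, 208 and 223 in Dicer KO oocytes. Each Ago2 ADH library lay above each control, and each Dicer KO library below, for a rise of 1.23 ± 0.17 and a change of -1.78 ± 0.17 (interaction 3.01 ± 0.24, edgeR adjusted p = 9.24e-09). Top3a, a topoisomerase that resolves recombination intermediates (chr11:60738209-60777365), had 1589, 1747 and 1742 in Ago2 fl/fl and 3524, 3399 and 3486 in Ago2 ADH oocytes. In the Dicer line it had 816, 744 and 587 in WT and 212, 220 and 308 in KO oocytes. The Ago2 ADH libraries stood far above their controls, and no Dicer KO library reached any Dicer WT library. The interaction of 2.56 ± 0.17 had the smallest p of these 7 genes (edgeR adjusted p = 3.18e-10).

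Parp8, an ADP-ribosyltransferase, and Arid5b, a DNA-binding protein of the ARID family, showed the same pattern with a smaller fall in Dicer KO. Parp8 went from 1027, 1134 and 1126 to 2305, 2285 and 2249 in the Ago2 line and from 1546, 1648 and 1863 to 1126, 1347 and 1238 in the Dicer line. Arid5b rose by 0.96 ± 0.08 in Ago2 ADH and changed by -0.37 ± 0.07 in Dicer KO oocytes. Its levels in the 2 controls were far apart, 2047 to 2811 in Ago2 fl/fl and 16240 to 16900 in Dicer WT, and no Ago2 ADH library came near a Dicer library. Stag1, a subunit of the cohesin ring, had the smallest interaction of the 7 (0.71 ± 0.12, edgeR adjusted p = 0.000471). Isg20 and Cyp11a1, the other members, had means under 100 normalized counts.

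The 46 genes with the reverse pattern, lower in Ago2 ADH and higher in Dicer KO oocytes, had a median interaction of -1.01. Fam47e (chr5:92554960-92591285) had 462, 589 and 614 normalized counts in Ago2 fl/fl and 292, 255 and 217 in Ago2 ADH oocytes. In the other line it had 340, 331 and 289 in Dicer WT and 1297, 1138 and 1141 in Dicer KO oocytes. The Dicer KO libraries stood above all 9 others, and the Ago2 ADH libraries were below their controls without overlap. Its effects were -1.12 ± 0.13 and 1.90 ± 0.13, the largest gap of this direction (interaction -3.02 ± 0.19, edgeR adjusted p = 1.84e-10).

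Myo10, a motor protein of filopodia that also binds microtubules (chr15:25622550-25813673), had 17770, 17650 and 17400 in Ago2 fl/fl and 14580, 13920 and 14780 in Ago2 ADH oocytes. Its Dicer values were 4111, 4597 and 3849 in WT and 15880, 15730 and 16050 in KO oocytes. The fall in Ago2 ADH was small, and the Dicer WT libraries were the ones that stood apart, with the KO libraries near the level of both Ago2 groups (interaction -2.21 ± 0.08, edgeR adjusted p = 1.6e-14). Rnf168, a ubiquitin ligase that marks histone H2A beside double-strand breaks (chr16:32277461-32301442), fell from 8355, 8605 and 8816 to 5360, 5823 and 5663 in Ago2 ADH oocytes. It rose from 7318, 7384 and 7043 to 21920, 20660 and 18760 in Dicer KO oocytes. Here the controls were close and the mutants moved apart (interaction -2.11 ± 0.08, edgeR adjusted p = 3.17e-14).

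Nol10, a nucleolar protein of ribosome assembly, went from 3623, 3656 and 3130 to 2799, 2755 and 2791 in Ago2 ADH and from 2237, 2335 and 2454 to 7322, 7556 and 6700 in Dicer KO oocytes. Its interaction was -1.94 ± 0.10 (edgeR adjusted p = 2.73e-12). Nhs, a regulator of actin at cell junctions, had effects of -0.57 ± 0.14 and 1.36 ± 0.14. Trim30d had effects of -0.74 ± 0.21 and 1.29 ± 0.23 and belongs to a cluster of similar Trim30 genes, and reads that align to more than 1 place were set aside in the counting. Ooep, a protein of the subcortical maternal complex of the egg, was the most abundant gene of this pattern. It had 165700 to 189000 normalized counts in Ago2 fl/fl and 130400 to 137100 in Ago2 ADH oocytes, against 73600 to 79990 in Dicer WT and 88160 to 91300 in Dicer KO oocytes. Neither pair of groups overlapped, and both changes were small (-0.40 ± 0.05 and 0.21 ± 0.05). Exosc2, a core subunit of the RNA exosome, changed by -0.49 ± 0.11 and 0.72 ± 0.11.

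**Figure D2:**
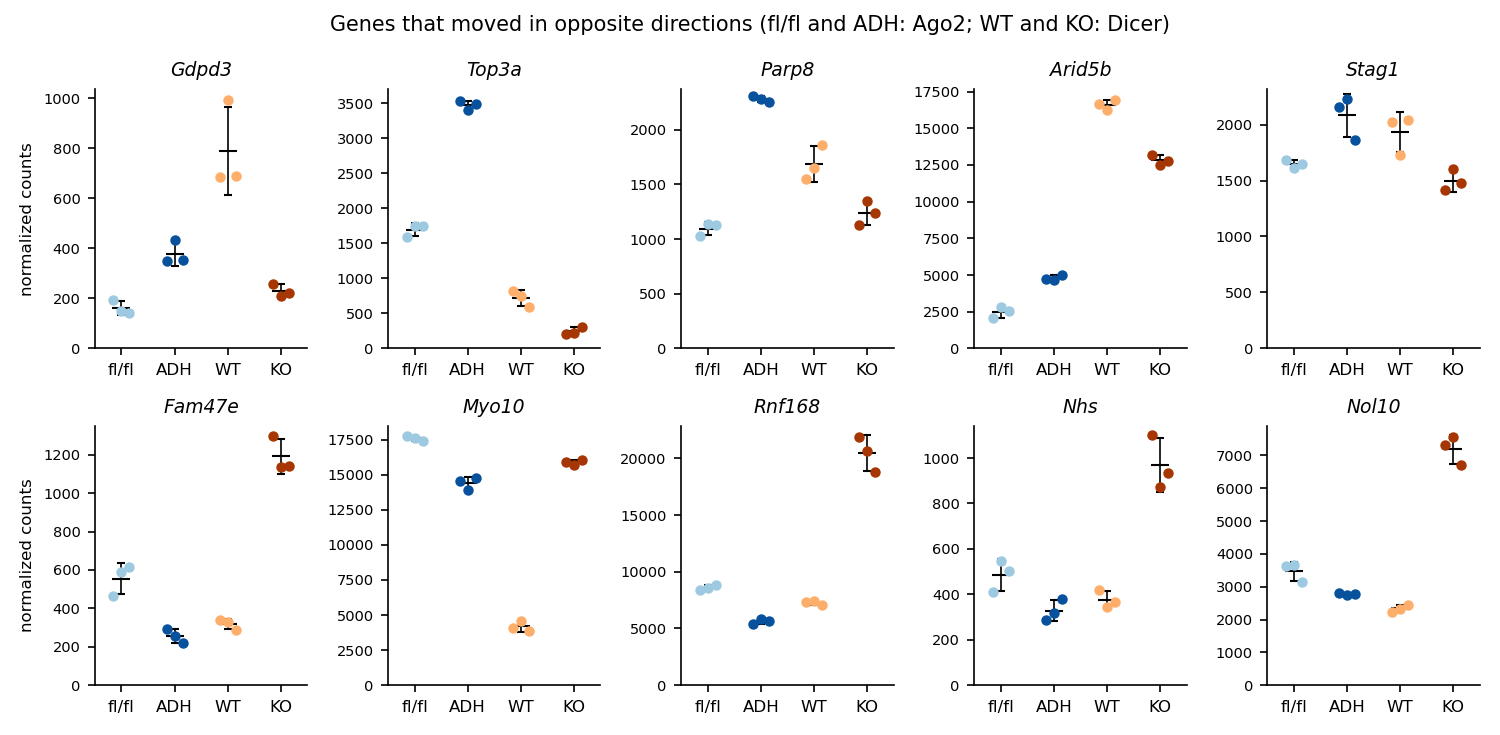
Normalized counts per library (vertical axes, from 0) of 10 genes that moved in opposite directions, with 3 points a group and the mean ± SD in black. The upper row rose in Ago2 ADH and fell in Dicer KO oocytes, as Top3a did from 1589 to 1747 up to 3399 to 3524 and from 587 to 816 down to 212 to 308, and the lower row did the reverse.

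Genes called in Ago2 ADH oocytes alone included cell-surface proteins in both directions. Cdh6, a cadherin of cell adhesion (chr15:13028699-13176407), had 3.07, 9.8 and 4.26 normalized counts in Ago2 fl/fl and 119, 100.2 and 76.5 in Ago2 ADH oocytes. In Dicer WT it had 259, 273 and 264, and in Dicer KO 215, 197 and 308. The Ago2 fl/fl libraries were near 0 while the Dicer groups overlapped and lay above Ago2 ADH, so the controls differed more than the mutants (effects 4.07 ± 0.33 and -0.14 ± 0.23, edgeR adjusted p of the interaction 3.16e-07). Ptprd, a receptor tyrosine phosphatase, fell from 281, 384 and 311 to 84, 82.3 and 80.6 in Ago2 ADH oocytes. It had 767, 742 and 777 in Dicer WT and 754, 569 and 662 in Dicer KO oocytes, where the groups overlapped. The interaction was -1.78 ± 0.20 (edgeR adjusted p = 2.83e-06).

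Prl8a2, a prolactin-family hormone known from the placenta, fell from 300, 316 and 343 to 52.2, 70.1 and 90.9 in Ago2 ADH oocytes. In Dicer KO it had 133, 112 and 155 against 81.4, 71.7 and 93.3, higher in each library but just short of the threshold (0.70 ± 0.22, edgeR adjusted p = 0.011). Tmeff2, a membrane protein with follistatin-like domains, fell from 166, 200 and 210 to 30.2, 99.4 and 59.9 and did not pass in Dicer KO (0.38 ± 0.27). In Ago2 null oocytes, which share the Ago2 fl/fl controls, Tmeff2 differed by 0.19 (edgeR adjusted p = 0.622 in a fit of all 14 libraries), while Ptprd fell by 1.87. Rises passed for Fzd5, a Wnt receptor (3.30 ± 0.43), Ppp2cb, a catalytic subunit of protein phosphatase 2A (2.42 ± 0.36), and Klhl21, an adaptor of a Cul3 ubiquitin ligase in cytokinesis (2.06 ± 0.28). Their Dicer KO effects were 0.85 ± 0.37, 0.20 ± 0.36 and 0.24 ± 0.28. Xaf1, an interferon-inducible gene, fell by 1.00 in Ago2 ADH and had an interaction of -1.66 ± 0.35. These 4 interactions passed narrowly. With each of the 12 libraries left out in turn, Fzd5 and Ppp2cb lost the call in 8 fits, Klhl21 in 7 and Xaf1 in 6, with edgeR adjusted p of up to 0.0372, 0.0308, 0.0202 and 0.0163. DESeq2 did not call Fzd5 or Klhl21.

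Among genes called in Dicer KO alone, Plbd1, a lysosomal protein of the phospholipase B family (chr6:136612071-136662303), had the most negative interaction of the 540 called genes. Dicer WT oocytes had 321, 242 and 162 normalized counts and Dicer KO oocytes 11130, 10910 and 11060. Ago2 fl/fl oocytes had 61.4, 56.5 and 103 and Ago2 ADH oocytes 93, 52.1 and 84.7. The 3 Dicer KO libraries stood far above all others, and the Ago2 groups overlapped. Plbd1 rose by 5.52 ± 0.17 in Dicer KO against 0.06 ± 0.25 in Ago2 ADH (interaction -5.46 ± 0.31, edgeR adjusted p = 2.73e-11). In Ago2 null oocytes its effect was 0.26 (edgeR adjusted p = 0.437).

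Zfp809, a KRAB zinc finger protein that recruits silencing to retroviral DNA, rose from 171, 250 and 166 to 836, 748 and 905 in Dicer KO oocytes. In the Ago2 line it had 239, 181 and 184 in controls and 292, 252 and 313 in Ago2 ADH oocytes, higher in each but not past the threshold (0.50 ± 0.16, edgeR adjusted p = 0.0135). Ramp2, a partner protein of the calcitonin receptor-like receptor, rose by 2.10 ± 0.23 in Dicer KO and had an effect of 0.29 ± 0.22 in Ago2 ADH. Teddm1b had effects of 0.89 ± 0.23 and -0.58 ± 0.22, and its interaction was lost in 6 of the 12 fits with a library left out (edgeR adjusted p up to 0.0169).

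Falls called in Dicer KO alone included that of Hdac9, a class IIa histone deacetylase (chr12:34047580-34917095). It had 752, 837 and 749 in Dicer WT and 189, 149 and 166 in Dicer KO oocytes, against 739, 706 and 691 in Ago2 fl/fl and 596, 586 and 674 in Ago2 ADH oocytes. The controls of both lines were alike, and the KO libraries were far below (effects -2.21 ± 0.12 and -0.20 ± 0.11, edgeR adjusted p of the interaction 1.8e-08). The Ago2 ADH libraries also lay below their controls without overlap, but that effect did not pass (edgeR adjusted p = 0.128). Crym, a thyroid hormone-binding protein, fell by 3.24 in Dicer KO and had an effect of -0.62 ± 0.29 in Ago2 ADH. Its Ago2 groups did not overlap either (edgeR adjusted p = 0.0855), and in Ago2 null oocytes the effect of Crym was -1.05 (edgeR adjusted p = 0.0145). Kctd21, an adaptor of Cul3 ligases, went from 416, 515 and 532 to 95, 71.9 and 134 in Dicer KO oocytes and had 72.9, 87.5 and 112.5 in Ago2 fl/fl and 100.3, 135 and 109.5 in Ago2 ADH oocytes. Its annotated start (chr7:97332308) is the last base of Usp35. Reads were counted without strand, so a read of either transcript that lay within the other gene would be counted for that gene. Ugdh, which makes the UDP-glucuronate of hyaluronan, fell by 1.40 in Dicer KO and had an effect of 0.89 ± 0.34 in Ago2 ADH, an interaction lost in 4 of the 12 fits with a library left out (edgeR adjusted p up to 0.0202).

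Both mutations changed the next genes in the same direction by unequal amounts. Deup1, which builds centrioles in multiciliated cells (chr9:15559864-15628351), had 56.8, 22.6 and 41.8 normalized counts in Ago2 fl/fl and 1691, 1600 and 1636 in Ago2 ADH oocytes. It had 186, 124 and 74 in Dicer WT and 971, 871 and 1129 in Dicer KO oocytes. Every mutant library was above every control, and the rise was 5.34 ± 0.24 in Ago2 ADH and 2.96 ± 0.22 in Dicer KO (edgeR adjusted p of the interaction 4.1e-05). Nipal1, a magnesium transporter, rose by 3.16 ± 0.16 and 1.61 ± 0.15.

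Ube2r2, a ubiquitin-conjugating enzyme that works with SCF ligases (chr4:41136021-41193370), rose from 807, 706 and 738 to 1263, 1161 and 1374 in Ago2 ADH and from 445, 403 and 440 to 3294, 3292 and 2996 in Dicer KO oocytes. The Dicer KO libraries were above all others, and the Dicer WT libraries the lowest (interaction -2.14 ± 0.12, edgeR adjusted p = 5.13e-11). Haus8, a subunit of augmin, which seeds microtubules within the spindle (chr8:71250597-71272627), had 2919, 2771 and 2528 in Ago2 fl/fl and 3384, 3624 and 3236 in Ago2 ADH oocytes. Its Dicer values were 378, 392 and 316 in WT and 1769, 1860 and 1822 in KO oocytes. Haus8 was higher in both Ago2 groups than in Dicer KO, and its rise was larger in Dicer KO (2.33 ± 0.09 against 0.32 ± 0.08).

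Akap6, an anchor of protein kinase A, fell from 203, 179 and 211 to 23.7, 13.8 and 22.7 in Ago2 ADH oocytes. In the Dicer line it went from 436, 401 and 406 to 325, 264 and 187, a smaller fall without overlap (interaction -2.62 ± 0.30, edgeR adjusted p = 5.21e-06). Slc5a12, a sodium-coupled lactate transporter, changed by -2.60 ± 0.17 and -1.41 ± 0.16. Falls were larger in Dicer KO for Slc4a3, a chloride and bicarbonate exchanger, and Krt12, a keratin known from the cornea. Slc4a3 had 279, 247 and 293 in Ago2 fl/fl, 136, 196 and 182 in Ago2 ADH, 340, 343 and 305 in Dicer WT and 45.3, 41.5 and 49.9 in Dicer KO oocytes. Its fall was 0.67 in Ago2 ADH and 2.84 in Dicer KO, and 4.28 in Ago2 null oocytes measured against the same Ago2 fl/fl libraries. Krt12 went from 3993, 3678 and 3841 to 1555, 1537 and 1335 in Ago2 ADH and from 1702, 1627 and 1420 to 200.3, 177 and 159 in Dicer KO oocytes (interaction 1.77 ± 0.14, edgeR adjusted p = 7.05e-09).

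**Figure D3:**
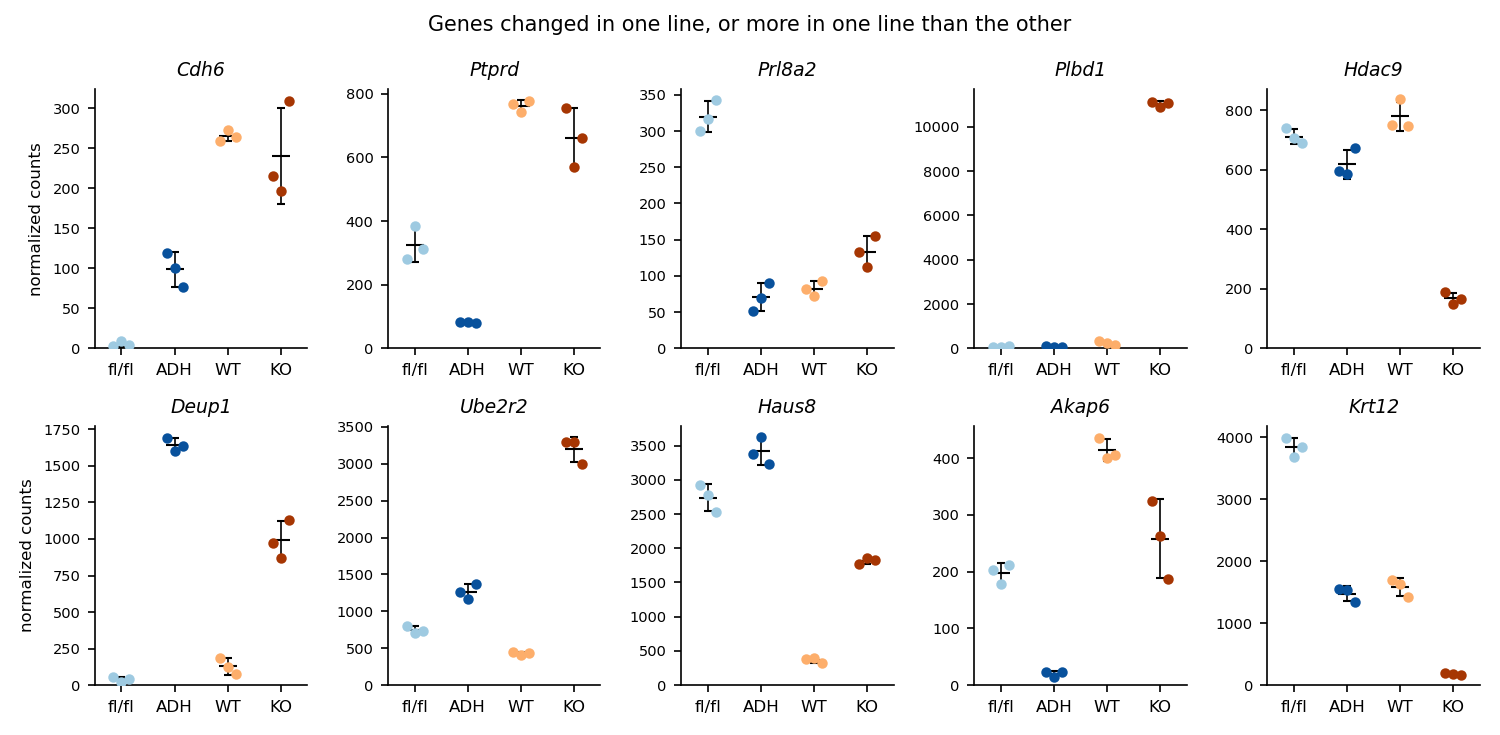
Normalized counts per library (vertical axes, from 0) of 10 genes that were called in 1 line alone or changed more in 1 line than in the other, with 3 points a group and the mean ± SD in black. The Dicer KO libraries of Plbd1 lie at 10910 to 11130 while all others are at or below 321, and Akap6 drops to 13.8 to 23.7 in Ago2 ADH and only to 187 to 325 in Dicer KO oocytes.

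Gpr20, an orphan receptor, had the largest fitted interaction among genes called in both lines. It had 1.53, 0 and 0 normalized counts in Ago2 fl/fl and 524, 455 and 497 in Ago2 ADH oocytes, which is 2 reads against 1681 and a ratio of 936 with an exact 95% interval of 259 to 7732. In Dicer WT it had 53.5, 36.9 and 23.6 and in Dicer KO 89.2, 32 and 145, overlapping groups whose rise of 1.25 ± 0.37 passed the test. The 2 Ago2 null libraries held 0 reads of Gpr20. Gpr20 lies 503.6 kb from Ago2 on chromosome 15. Within 10 Mb of Ago2 the interaction was called for 6 of 177 genes (3.39%), against 18 of 373 (4.83%) on the rest of that chromosome. Around Dicer1 the counts were 5 of 113 (4.42%) and 21 of 369 (5.69%). By chromosome the share of called genes ran from 1.83% on chromosome 19 to 5.59% on chromosome 12.

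By function, 49 gene lists were examined, and the counts below stand beside 3.72% called and a median interaction of -0.024 over all genes tested. Among 25 genes of small RNA silencing 3 were called, Dicer1 lower, and Piwil2 and Ddx4 higher in Ago2 ADH, with a list median of -0.005. Piwil2, a PIWI protein that carries piRNAs, went from 114, 93.5 and 108 to 521, 401 and 556 in Ago2 ADH oocytes and had 363, 144 and 207 in Dicer WT and 257, 374 and 425 in Dicer KO oocytes. The Dicer groups overlapped, and the effects were 2.23 ± 0.25 and 0.57 ± 0.24, with an interaction lost in 4 of the 12 fits with a library left out (edgeR adjusted p up to 0.0123). Of 13 genes assayed by RT-PCR in the study, a list without its Ago1, Ago4 and c-Mos assays, 2 were called, 1 in each direction. Vav3, a guanine nucleotide exchange factor, rose from 172 to 182 up to 5967 to 6389 in Ago2 ADH and from 266 to 297 up to 5852 to 6276 in Dicer KO oocytes. The mutant levels were alike and the rises, 5.13 ± 0.08 and 4.45 ± 0.08, differed with the controls. Oog4, an oogenesin of the oocyte, rose by 1.04 ± 0.05 and 1.53 ± 0.05.

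Of 52 genes of spindle assembly and chromosome congression, 5 (9.62%) were called and all 5 were lower in Ago2 ADH relative to Dicer KO, with a list median of -0.115. Knl1, the scaffold of the outer kinetochore, had 4573, 4984 and 5005 in Ago2 fl/fl, 5832, 5500 and 6439 in Ago2 ADH, 6941, 6260 and 6697 in Dicer WT and 17500, 15980 and 17960 in Dicer KO oocytes. Both mutants were above their controls, Dicer KO by more (effects 0.29 ± 0.06 and 1.37 ± 0.07, edgeR adjusted p of the interaction 2.7e-08). Prc1, which bundles microtubules at the spindle midzone, rose by 1.09 ± 0.05 and 1.64 ± 0.05, and Haus8 is given above. In both mutants members of the list moved in each direction, 10 up and 16 down in Ago2 ADH and 14 up and 10 down in Dicer KO oocytes. Among 31 genes of the spindle checkpoint and the anaphase-promoting complex, Ube2c alone was called. This conjugating enzyme of the complex rose by 1.30 ± 0.06 and 1.98 ± 0.06.

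In DNA damage response and repair, 4 of 80 genes (5%) were called, 3 lower and 1 higher in Ago2 ADH, with a list median of -0.075. Rnf168 is described above. Mdc1, which binds the phosphorylated histone beside a break, had 3442, 3669 and 3351 in Ago2 fl/fl and 3084, 2838 and 3427 in Ago2 ADH oocytes. It rose from 3264, 3436 and 3454 to 7514, 6953 and 7456 in Dicer KO oocytes. The Ago2 groups overlapped and the Dicer KO libraries were above all others (effects -0.16 ± 0.07 and 1.11 ± 0.07, edgeR adjusted p of the interaction 4.5e-09). Rpa1, the large subunit of the single-strand DNA-binding complex, had effects of -0.16 ± 0.07 and 0.52 ± 0.08.

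Protein turnover and folding held further called genes. Of 87 ubiquitin-conjugating enzymes and ubiquitin-specific proteases, 10 (11.5%) were called, 3 higher and 7 lower in Ago2 ADH, with a list median of -0.072. The 3 higher genes were the proteases Usp35 and Usp12 and the NEDD8-conjugating enzyme Ube2f. Usp12 went from 475, 464 and 496 to 863, 717 and 736 in Ago2 ADH oocytes and had 635, 732 and 639 in Dicer WT and 560.0, 547 and 661 in Dicer KO oocytes, where the groups overlapped (effects 0.69 ± 0.11 and -0.18 ± 0.11). Usp35, whose call was lost without Ago2 ADH replicate 1 (edgeR adjusted p = 0.0126), and Ube2f rose by 1.94 ± 0.29 and 0.58 ± 0.09 in Ago2 ADH and had effects of -0.17 ± 0.30 and -0.25 ± 0.09 in Dicer KO. Of 222 genes of F-box, Trim, Rnf, cullin and Klhl families 16 (7.21%) were called, 4 higher and 12 lower.

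Of 69 heat shock and chaperone genes, 6 (8.7%) were called, 4 higher and 2 lower, with a list median of -0.036. Hspa5 and Hsp90b1, chaperones of the endoplasmic reticulum, fell in Dicer KO. Hspa5 had 5418, 5087 and 4763 in Ago2 fl/fl, 4612, 4456 and 4874 in Ago2 ADH, 5530, 5272 and 5653 in Dicer WT and 2383, 2646 and 3085 in Dicer KO oocytes. The Dicer KO libraries were the lowest, and the Ago2 groups overlapped (effects -0.13 ± 0.07 and -1.02 ± 0.08, edgeR adjusted p of the interaction 7.5e-06). Hsp90b1 had effects of -0.83 ± 0.07 and -1.40 ± 0.08, and Cct4, a subunit of the cytosolic chaperonin, of 0.15 ± 0.10 and -0.74 ± 0.10. Hspb1, a small heat shock protein, rose by 1.08 ± 0.21 and 2.53 ± 0.23, a difference that DESeq2 did not call (DESeq2 adjusted p = 0.0248) and that was lost in 6 of the 12 fits with a library left out.

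Among 37 genes of glutathione and redox defence 3 (8.11%) were called, with a list median of -0.002. Nfe2l2, the regulator of antioxidant genes, had 1364, 1365 and 1537 in Ago2 fl/fl and 950.4, 908 and 826 in Ago2 ADH oocytes, and 2180, 2470 and 2169 in Dicer WT and 711, 850.2 and 786 in Dicer KO oocytes. The controls were further apart than the mutants, and the fall was larger in Dicer KO (-1.54 ± 0.09 against -0.67 ± 0.09). Txn1, thioredoxin, rose by 0.42 ± 0.07 and 1.14 ± 0.07, and Prdx1, a peroxiredoxin, had effects of 0.10 ± 0.05 and 0.50 ± 0.05. Of 83 cytosolic ribosomal protein genes 5 (6.02%) were called, with a list median of 0.034. Rpl35a and Rpl37a rose in Ago2 ADH (0.49 ± 0.08 and 0.41 ± 0.07) and had effects of -0.24 ± 0.08 and -0.10 ± 0.07 in Dicer KO. Rps15a and Rps13 rose in Dicer KO (0.77 ± 0.07 and 0.64 ± 0.06) and had effects of 0.22 ± 0.07 and 0.16 ± 0.06 in Ago2 ADH. Ribosomal protein genes have many processed copies in the genome, so reads that also align to a copy are missing from these counts. In the 81 genes of oxidative phosphorylation 3 (3.7%) were called, the same share as over all genes tested (3.72%), and all were higher. Among them was the ATP synthase subunit Atp5k, which fell by 0.64 and 1.17. That difference was lost in 6 of the 12 fits with a library left out (edgeR adjusted p up to 0.0153).

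Of 17 oocyte growth factor, zona pellucida and egg surface genes 2 were called, both higher in Ago2 ADH. Zp3, the zona protein whose promoter drives the Cre transgene, had 83900 to 85310 in Ago2 fl/fl, 100900 to 105600 in Ago2 ADH, 74440 to 76300 in Dicer WT and 64040 to 78270 in Dicer KO oocytes. The rise of 0.29 ± 0.06 in Ago2 ADH was called, and the Dicer KO effect was -0.08 ± 0.06. Cd9, the egg protein needed for sperm fusion, had effects of 0.14 ± 0.08 and -0.38 ± 0.08. Each of these 2 calls was lost in 4 of the 12 fits with a library left out (edgeR adjusted p up to 0.0118 for Zp3 and 0.0169 for Cd9). Hsf2, a heat shock factor in the list of 20 oocyte transcription factors, of which 3 were called, rose by 1.52 ± 0.16 in Ago2 ADH and had an effect of 0.32 ± 0.15 in Dicer KO. Ddx6, a helicase of stored and decapped mRNA, rose by 1.24 ± 0.11 and 0.36 ± 0.11. Among 35 genes of deadenylation and decapping 4 (11.4%) were called, 1 higher and 3 lower.

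Proteins of the cell surface and matrix were called in both directions. Of 123 genes of the extracellular matrix and its proteases 6 (4.88%) were called. Adam8, a membrane metalloprotease, had 115, 112 and 115 in Ago2 fl/fl, 37.5, 59.5 and 51.7 in Ago2 ADH, 131, 149 and 140 in Dicer WT and 14.6, 14.4 and 8.96 in Dicer KO oocytes. Controls were close, and the fall was deeper in Dicer KO (-3.48 ± 0.31 against -1.20 ± 0.25). The integrin subunit Itgb3 changed by -0.71 ± 0.10 and -1.92 ± 0.11, while Itgb6 fell in Ago2 ADH alone (-1.66 ± 0.28 against 0.36 ± 0.28). Adgrb1, an adhesion receptor 1.33 Mb from Ago2, changed by -3.51 ± 0.59 in Dicer KO and had an effect of 0.25 ± 0.46 in Ago2 ADH. It had 31.5, 27.1 and 23 normalized counts in Ago2 fl/fl oocytes. The Dicer WT libraries held 40, 80 and 27 reads of it and the Dicer KO libraries 2, 1 and 7, so these folds rest on few reads. In Ago2 null oocytes Adgrb1 changed by -3.02 (edgeR adjusted p = 0.00267), on 8 and 0 reads. Its interaction was lost in 3 of the 12 fits with a library left out (edgeR adjusted p up to 0.0125). Ano5, of the anoctamin family, was called, but its 20 reads in Ago2 ADH came from 1 library and its Ago2 fl/fl libraries held none, so no fold is given. The call was lost in 10 of the 12 fits with a library left out (edgeR adjusted p up to 1), with DESeq2 (adjusted p = 0.0682) and with limma-voom (adjusted p = 0.011).

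Cyp11a1, the enzyme that starts steroid synthesis from cholesterol and also 1 of the 15 cumulus or granulosa markers, was called in both lines in opposite directions. It had 87.5, 58.8 and 42.6 normalized counts in Ago2 fl/fl and 172, 334 and 102 in Ago2 ADH oocytes, against 64, 53.7 and 49.4 in Dicer WT and 4.39, 12.8 and 5.12 in Dicer KO oocytes. The groups did not overlap in either line, and of the other markers Inha and Hsd17b1 were also higher in Ago2 ADH without overlap. Fshr and Has2 went the other way. Fshr had 0.815 to 1.54 CPM in Ago2 fl/fl and 0.191 to 0.567 in Ago2 ADH oocytes, and Has2 1.05 to 1.41 and 0.351 to 0.789. Both were lower in Dicer KO than in Dicer WT too, without overlap. The sum, carried by Serpine2, Cyp19a1 and Nr5a2, was lower in both mutants. Amhr2, the receptor of anti-Müllerian hormone, had 0.0347 to 0.162 CPM in Dicer WT and 0 in Dicer KO oocytes. On this scale the 3 Cyp11a1 reads of Dicer KO replicate 1 were 0.125 CPM. Fst went the other way without overlap, with 0.069 to 0.226 CPM in Dicer WT and 0.419 to 0.727 in Dicer KO oocytes. The part of such cells in the Cyp11a1 values was not tested. In Ago2 null oocytes its effect was -0.24 (edgeR adjusted p = 0.692).

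**Figure D4:**
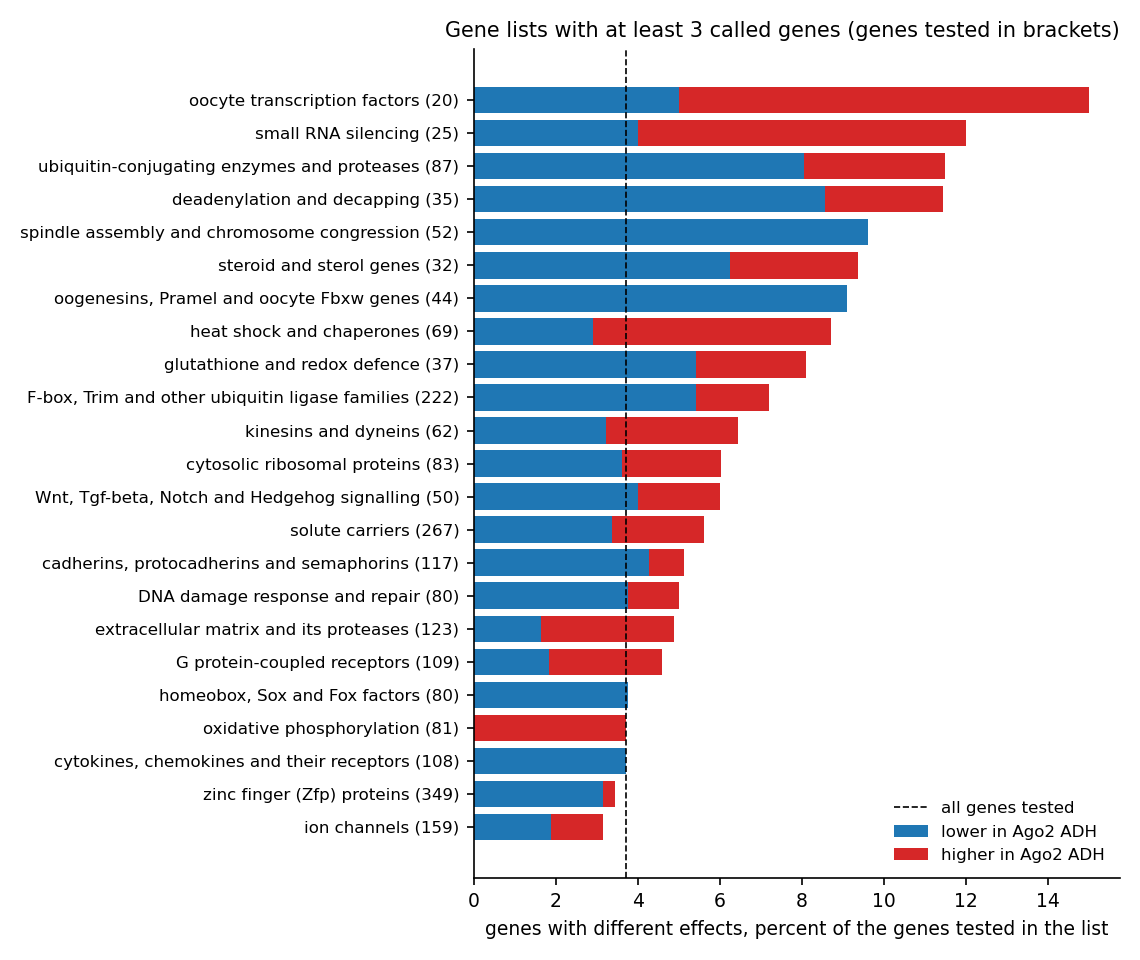
The share of each list's tested genes (horizontal axis, percent) with different effects, for lists with at least 3 called genes, 1 such list left out, and the number tested in brackets, split into genes lower (blue) and higher (red) in Ago2 ADH. The dashed line marks 3.72% over all genes, and short lists reach high shares with few genes, as with 3 of 25 in small RNA silencing.

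Matches to the seeds of 3 microRNAs, which Dicer makes, were counted in the 3 prime UTRs of 14285 of the genes tested. The mature sequences of let-7a (chr13:48538239-48538260, minus strand), miR-16 (chr3:69009918-69009939, plus strand) and miR-30a (chr1:23272274-23272295, plus strand) are from RefSeq (GRCm38.p6), each 5′ to 3′ with the seed, bases 2 to 8, in capitals, and are shown because their seeds set the letters searched on the mRNA strand.
mmu-let-7a-5p: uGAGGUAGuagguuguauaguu
mmu-miR-16-5p: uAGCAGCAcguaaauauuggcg
mmu-miR-30a-5p: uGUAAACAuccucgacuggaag

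The letters CTACCTC, which pair with the let-7 seed, were found in 1259 genes. Their median interaction was -0.025 against -0.023 in the 13026 genes without them, and 4.69% against 3.63% were called. Their median effects were -0.041 in Ago2 ADH and 0.013 in Dicer KO, close to -0.021 and 0.006 in the rest. For miR-16 (TGCTGCT, 3062 genes) the median interactions were -0.011 with and -0.026 without a match. For miR-30a (TGTTTAC, 2041 genes) they were -0.003 and -0.026. Genes with a match had longer UTRs, for let-7a a median of 2261 bases against 861, and a match is a description of letters and not a site. MicroRNA levels were not measured in these libraries, so the medians say nothing of how much microRNA either mutant held. Among the called genes higher in Ago2 ADH 10.7% held the let-7a match, and among those lower 11.3%, with 8.81% over all genes. The shares for miR-16 were 27.3%, 21.2% and 21.4%, and for miR-30a 19.8%, 15.4% and 14.3%. Called genes had longer transcripts, with a median of 3372 bases against 2915 over all genes tested. The part of length in these shares was not tested.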

How the data were processed

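RNA was amplified from oocyte lysates with an oligonucleotide-primed kit and sequenced as paired ends. The deposited values are raw read counts per RefSeq transcript with no normalization. The authors aligned reads to mm10 with TopHat (TopHat2 2.0.7 in the submitters' processing notes, another version in the methods), keeping up to 100 alignments a read, and counted with HTSeq 0.6.1 in intersection-strict mode without strand. Options for 36 and 50 base reads are given without saying which libraries had which. Of 26495 transcript IDs, 26081 took symbols from RefSeq and 113 from GENCODE. Lanes were read from the names of the count tables.

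All 12 libraries were fitted together in edgeR 4.0.16 (R 4.3.3) with 1 coefficient a group, filterByExpr (minimum count 10, minimum total 15), TMM and the quasi-likelihood test, adjusted over 14526 genes at an FDR of 1%. The standard error is the absolute log2 fold change divided by the square root of F. Ago2 null values are from a fit of all 14 libraries. Scripts were tested on simulated counts. Library pairs of a group differed by chi-square of 6.45 to 14.7 per degree of freedom, so none was a duplicate.

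Genes were named by a rule: libraries averaging 100 or more normalized counts, without overlap between groups in any called effect, then the largest interactions. Of these, up to 6 were taken in each direction for opposite changes, 4 for changes called in 1 line and 2 for shared changes. Fewer than 6 met the rule among genes that rose in Ago2 ADH and fell in Dicer KO oocytes. Added were the targeted genes, the 13 listed as assayed by RT-PCR, and up to 4 called members of each of 49 lists, not all of which are printed. The comparison, the lists and the rule were chosen with earlier results of these data known. Alternatives were DESeq2 1.42.0 (independent filtering off), limma-voom 3.58.1 with quality weights, RLE factors, library sizes alone, no filter or a floor of 10 counts per library, an FDR of 5%, summed and all transcripts, all 14 libraries, each library left out, a replicate block, and offsets from a lowess (span 0.3) on GC content and on length, known for 98.4% of genes. Some withheld items are not reported here.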

Additional observations from a re-analysis of the deposited data

Results flagged for a closer look

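The 2 mutations' effects were set against each other by the interaction itself, which passed for 540 genes, and the genes named in the report are listed here because they passed. On the log2 scale, interactions higher in Ago2 ADH were 3.01 for Gdpd3, 2.56 for Top3a, 1.50 for Parp8, 1.33 for Arid5b, 0.71 for Stag1, 4.21 for Cdh6, 2.45 for Fzd5 and 2.23 for Ppp2cb. Further values were 1.82 for Klhl21, 2.62 for Crym, 2.61 for Kctd21, 2.29 for Ugdh, 2.01 for Hdac9, 2.39 for Deup1, 1.55 for Nipal1 and 2.17 for Slc4a3. Others were 1.77 for Krt12, 1.66 for Piwil2, 8.31 for Gpr20, 3.76 for Adgrb1, 0.68 for Vav3, 2.10 for Usp35 and 0.87 for Usp12. Then came 0.82 for Ube2f, 0.89 for Hspa5, 0.89 for Cct4, 0.57 for Hsp90b1, 0.87 for Nfe2l2, 0.73 for Rpl35a, 0.52 for Rpl37a and 0.53 for Atp5k. The list went on with 4.61 for Cyp11a1, 2.27 for Adam8, 1.21 for Itgb3, 0.38 for Zp3, 0.52 for Cd9, 1.20 for Hsf2 and 0.88 for Ddx6. Ano5 passed too, on 20 reads of a single Ago2 ADH library, and has no value here. Interactions lower in Ago2 ADH were -3.02 for Fam47e, -2.21 for Myo10, -2.11 for Rnf168, -2.03 for Trim30d, -1.94 for Nhs, -1.94 for Nol10, -2.88 for Prl8a2 and -1.98 for Tmeff2. Further values were -1.78 for Ptprd, -1.66 for Xaf1, -5.46 for Plbd1, -1.81 for Ramp2, -1.58 for Zfp809, -1.47 for Teddm1b, -2.14 for Ube2r2 and -2.01 for Haus8. Others were -2.62 for Akap6, -1.20 for Slc5a12, -0.63 for Dicer1, -0.49 for Oog4, -1.08 for Knl1, -0.55 for Prc1, -1.27 for Mdc1 and -0.69 for Rpa1. Then came -0.68 for Ube2c, -1.45 for Hspb1, -0.72 for Txn1, -0.39 for Prdx1, -0.55 for Rps15a, -0.48 for Rps13, -2.02 for Itgb6 and -0.61 for Ooep. The list went on with -1.21 for Exosc2.

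A tally outside the gene counts, alignments to more than 1 place per count on a transcript, was higher in both mutants. It was 0.557 to 0.597 in Ago2 fl/fl, 1.58 to 1.66 in Ago2 ADH, 0.388 to 0.536 in Dicer WT and 0.939 to 1.19 in Dicer KO libraries, without overlap in either line. The log2 differences were 1.49 and 1.18, each with an exact two-sided permutation p = 0.1, the smallest that 3 against 3 can give. Whether these 2 differences differ was not tested. Lanes differed between Ago2 genotypes, and their part was not tested.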

How the results depend on the processing

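No value of a named gene reversed, but the 191 higher against 349 lower became 282 against 272 with library sizes alone, and the median interaction of -0.024 became 0.004 with DESeq2 and RLE factors, 0.006 with the GC and length offsets and 0.042 with library sizes alone. Of 1818 values of named genes under the alternatives, 1720 kept direction and call and 98 kept direction only; of 72 called genes, 63 kept their call in every fit on all libraries, 58 with each library left out and 57 throughout. Adam8, Adgrb1, Ano5, Cdh6, Crym, Cyp11a1 and Gpr20 gave no value with a floor of 10 counts in each library. The 540 interactions became 867 with DESeq2 (531 shared) and 1271 at an FDR of 5%. The 166 of at least 2-fold became 252 without a filter and 324 at an FDR of 5%, and the 53 opposite genes 117 at that FDR. With each library left out the interaction was called for 349 (without Ago2 ADH replicate 1) to 703 genes (without Dicer KO replicate 3), and for 357 without Ago2 fl/fl replicate 2; 341 to 494 of the 540 were shared. Interactions of at least 2-fold ran from 128 to 230, opposite genes from 34 (without Ago2 fl/fl replicate 2) to 59, Ago2 ADH effects from 4427 to 5555 and Dicer KO effects from 4632 to 5365.

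A replicate block gave 422 interactions, 397 with offsets for GC content and length. Named genes that lost the call under both were Adgrb1 (edgeR adjusted p = 0.0116 and 0.0102), Fzd5, Hspb1, Ppp2cb and Teddm1b, and with the offsets also Prdx1 (0.0232) and Zp3 (0.0104). Same-numbered mutant and control libraries correlated by 0.0187, 0.0297 and 0.0156 in the Ago2 line and -0.059, 0.0254 and -0.0984 in the Dicer line. These values are near 0, although every Ago2 library correlated best with its own number. Whether same-numbered libraries shared a collection was not tested. With 3 libraries a group the median standard error of an interaction was 0.2 and the smallest called was 0.30.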
